A study of Sus scrofa domesticus with 11 samples.

Results

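The genes described here are a set of 38 cell cycle and proliferation genes, listed by symbol, that cover entry into S phase, DNA replication, mitosis and cytokinesis. Of these, 33 were found by their gene name among the 22029 genes of the deposited table: 12 of 13 S phase genes, the G1 cyclin CCND1, and 20 of 24 mitotic genes. MKI67 (ENSSSCG00000026302), AURKA (ENSSSCG00000007493) and NUSAP1 (ENSSSCG00000035544) carried no symbol in the table and were recognised by its description column. They are given below but are not counted among the 33 unless stated. CCNA2 and RRM2 were not analysed here. The rule that finds them in the table uses no measured value, but the list was drawn up with earlier results of these data known.

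The measurements are RNA-seq of liver from preterm Yorkshire piglets receiving parenteral nutrition, which is feeding by vein, taken at sacrifice on day of life 15. Of the 11 libraries, 5 came from animals given SEFA-6179, a compound named only by this code, at 48 mg/kg, and 6 from animals given MCT, the vehicle control, at 3 ml/kg. The abbreviation MCT is used for medium-chain triglyceride. Both groups were preterm and on parenteral nutrition, so neither stands for a healthy liver, and the labels do not give the sex or litter of a library. The design text speaks of animals, and each library was taken as 1 animal. If that is not so, the p-values measure only the spread between these samples.

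Cells prepare for division in a fixed order. D-type cyclins and E2F factors move a cell from G1 into S phase, when the MCM2 to MCM7 ring unwinds DNA, PCNA clamps the polymerases onto it, and RRM1, TYMS and TK1 help to supply the nucleotides. In G2 and mitosis, CDK1 with its cyclins, the factor FOXM1 and the Polo and Aurora kinases drive the building of the spindle, the attachment and separation of chromosomes, and cytokinesis. Most adult hepatocytes are quiescent, whereas the liver of a growing newborn still holds dividing cells.

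The SEFA-6179 libraries held 16821201 to 19215097 counts and the MCT libraries 15974977 to 23416071, and every pair of libraries differed by more than sampling noise. All 33 genes passed the filter on low counts. Their mean counts ran from 10.5 for PRC1 to 1175 for RRM1, so the lowest of them were measured with little precision. As a check of the tissue label, 16 hepatocyte markers together took 102355 to 232786 CPM (counts scaled to a common library total) in every library. MCT replicate 5 stood apart from the other libraries over all genes, at 83.1 on the first principal component, where the other 10 lay between -30.8 and 14.7. SEFA-6179 replicate 4 had a macrophage and Kupffer cell marker sum of 171 CPM, where the other SEFA-6179 libraries had 1318 to 2640 CPM. That sum was 384 CPM in MCT replicate 5 and 723 to 1651 CPM in the other MCT libraries. Estimates without either library, or without another that moved them, are given beside many of the genes below.

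No cell cycle gene passed the test between SEFA-6179 and MCT. In edgeR's quasi-likelihood test, adjusted by Benjamini-Hochberg over 13671 genes with a threshold of 0.05, 0 of the 33 were called, and the background was 30 of 13671 genes, or 0.219%. The lowest adjusted p among them was 0.345, for PLK1. At an unadjusted p under 0.05, 2 of the 33, MCM5 and PLK1, were lower with SEFA-6179 and 0 were higher, where 5.52% and 5.24% of all genes were lower and higher. DESeq2's Wald test called 0 of the 33, with a lowest adjusted p of 0.256, against 1.78% of the genes it tested. In the authors' deposited table none of the 33 had an adjusted p under 0.05, against 1.16% of its genes.

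The estimates nevertheless lay mostly on the lower side. The log2 fold change of SEFA-6179 minus MCT was below 0 in 26 of the 33, with a median of -0.30, where 50.2% of all tested genes were below 0 and their median was -0.0015. By phase, 8 of 12 S phase genes were below 0, with a median of -0.03, and 17 of 20 mitotic genes, with a median of -0.36. Genes of the same libraries are not replicates, and these counts have no test. In 31 of the 33 the 95% interval of the log2 fold change held 0. None of the 33 had groups that did not overlap, where 1.49% of all genes did. Markers of cholangiocytes, the bile duct cells, had a median of -0.66 in the same comparison, with 11 of 12 below 0. Stellate cell markers had 11 of 14 below 0, and endothelial markers had 0 of 15. The part of these cells in the values of the cell cycle genes was not tested. With the 3 genes known by description added, 29 of 36 were below 0 and the median was -0.32.

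**Figure D1:**
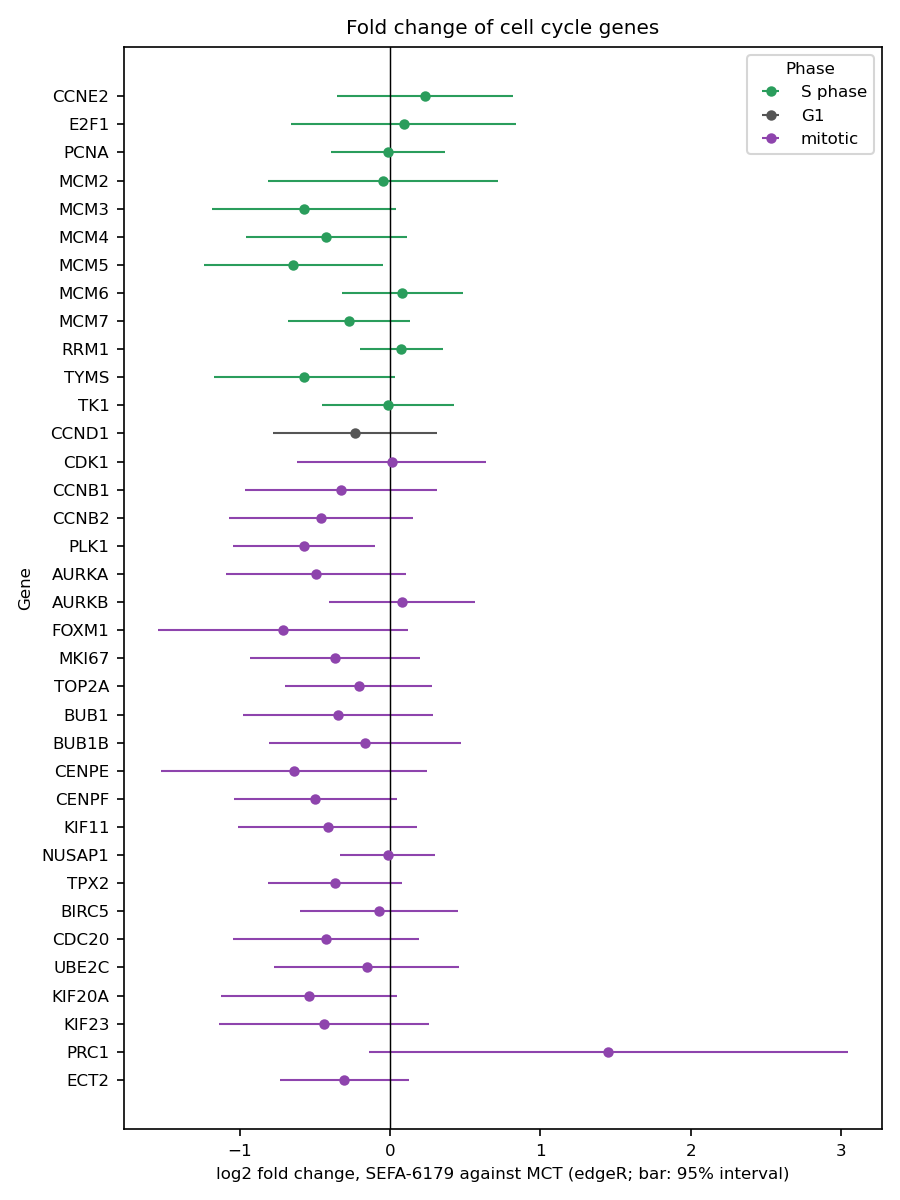
Log2 fold change of SEFA-6179 minus MCT (horizontal axis) with its 95% interval for 36 cell cycle genes, coloured by phase, from edgeR on 5 and 6 libraries. Most points lie left of 0, and the intervals of MCM5 and PLK1 alone among the 33 genes found by name do not reach it.

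The size of this pattern depended on which libraries were included. It was larger without the libraries that stood apart, with a median of -0.41 when SEFA-6179 replicate 4 was left out and -0.35 when MCT replicate 5 was. Leaving out SEFA-6179 replicate 1 gave a smaller median, of -0.21, and leaving out MCT replicate 2 gave -0.22. Without SEFA-6179 replicate 4, 7 of the 33 genes were lower at an unadjusted p under 0.05, against a background of 4.81%: MCM2, MCM3, MCM4, MCM5, MCM7, CCND1 and PLK1. The S phase median was then -0.44 in place of -0.03. Without MCT replicate 5 the number was 6, against a background of 5.82%, namely CCNB2, PLK1, FOXM1, CENPE, CENPF and KIF20A. Without both libraries 11 were lower and 0 higher, against a background of 5.11% lower, and 29 of 33 log2 fold changes were below 0, with a median of -0.44. SEFA-6179 replicate 4 was the highest of all 11 libraries in 6 of 12 S phase genes. MCT replicate 5 was the lowest MCT library in 12 of 20 mitotic genes. Leaving them out thus lowers many of these same estimates, and the counts are no evidence apart from that choice. Without SEFA-6179 replicate 1 no member reached an unadjusted p under 0.05, where 5.37% of all genes were lower at that p. With MCT replicate 2 left out, 8 of the 20 mitotic estimates were smaller by more than 1.5 times. None of the 33 passed the adjusted threshold by edgeR in any of these fits, and the lowest adjusted p, 0.145, was that of MCM4 without SEFA-6179 replicate 4.

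The S phase genes are taken first, beginning with the replicative helicase. MCM2 to MCM7 form the ring that is loaded at origins and unwinds DNA at the fork. Summed over the 6 genes, their deposited FPKM (fragments scaled to transcript length and library total) was 18.8, 19.0, 15.2, 36.5 and 18.01 in SEFA-6179 replicates 1 to 5. In MCT the sum was 23.2 at the lowest and 34.4 at the highest. Thus 4 SEFA-6179 libraries lay below every MCT library and SEFA-6179 replicate 4 lay above all of them. The group values were 21.5 ± 8.53 FPKM (SD, n = 5) and 27.1 ± 4.35 FPKM (SD, n = 6). With SEFA-6179 replicate 4 and MCT replicate 5 left out, the means were 17.7 and 25.6 FPKM.

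MCM5 (ENSSSCG00000022823 in the deposited table, on a scaffold not assigned to a chromosome) had the largest difference of the ring. Its level was 7.89, 5.49, 4.70, 13.6 and 5.85 CPM in SEFA-6179 replicates 1 to 5, and 8.24 CPM at the lowest, 11.3 at the median and 17.8 at the highest with MCT. The groups overlapped through SEFA-6179 replicate 4 alone, since the other 4 lay below every MCT library. The log2 fold change was -0.64 ± 0.28 (SE), with an unadjusted p of 0.0366 and an edgeR adjusted p of 0.411, which ranged from 0.196 to 0.644 over the other settings. Without SEFA-6179 replicate 4 it was -0.96, with an edgeR adjusted p of 0.203. Dropping MCT replicate 5 instead gave -0.49, at an unadjusted edgeR p of 0.088. Dropping SEFA-6179 replicate 3 gave -0.51, at an unadjusted edgeR p of 0.092. That p was also above 0.05 when SEFA-6179 replicate 1, 2 or 5 or MCT replicate 6 was dropped. It stayed under 0.05 when SEFA-6179 replicate 4 or MCT replicate 1, 2, 3 or 4 was dropped.

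MCM2 (chromosome 13, 72630380 to 72657620) was at 7.83, 4.04, 4.29, 18.1 and 5.24 CPM in the SEFA-6179 replicates, and at 6.05, 8.30 and 11.01 CPM at the lowest, median and highest MCT library. Here 3 SEFA-6179 libraries were below every MCT library and replicate 4 was above every one, so that the group means, 7.90 ± 5.90 CPM (SD, n = 5) and 8.17 ± 1.85 CPM (SD, n = 6), nearly coincided. Its log2 fold change was -0.05 ± 0.36 (SE), with an edgeR adjusted p of 0.980, and -0.60 without SEFA-6179 replicate 4, with an edgeR adjusted p of 0.445. MCM2 overlaps TPRA1, a more abundant gene on the other strand.

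The rest of the ring divided in the same manner, except MCM6. SEFA-6179 replicates 1, 2, 3 and 5 lay below every MCT library for MCM3 (3.46 to 6.81 CPM against 7.10 to 13.7 CPM) and for MCM4 (7.80 to 10.7 CPM against 13.0 to 19.8 CPM). Between the groups the log2 fold change was -0.57 ± 0.29 (SE) for MCM3 and -0.42 ± 0.25 (SE) for MCM4, or -0.89 and -0.77 without SEFA-6179 replicate 4. At the other end, MCM3 was at -0.40 without SEFA-6179 replicate 3, and MCM4 at -0.30 without SEFA-6179 replicate 2. MCM7, at 24.0 to 50.4 CPM with SEFA-6179 and 32.2 to 48.7 CPM with MCT, had a log2 fold change of -0.27 ± 0.19 (SE), or -0.48 without SEFA-6179 replicate 4 and -0.18 without SEFA-6179 replicate 3. MCM6 overlapped between the groups, at 8.43 to 16.1 CPM and 7.99 to 12.1 CPM, with a log2 fold change of 0.08 ± 0.19 (SE). None of these 4 passed the edgeR test, with adjusted p of 0.494, 0.571, 0.652 and 0.911. SEFA-6179 replicate 4 was the highest of all 11 libraries in 4 of the 6 MCM genes, and MCT replicate 5 in the other 2.

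**Figure D2:**
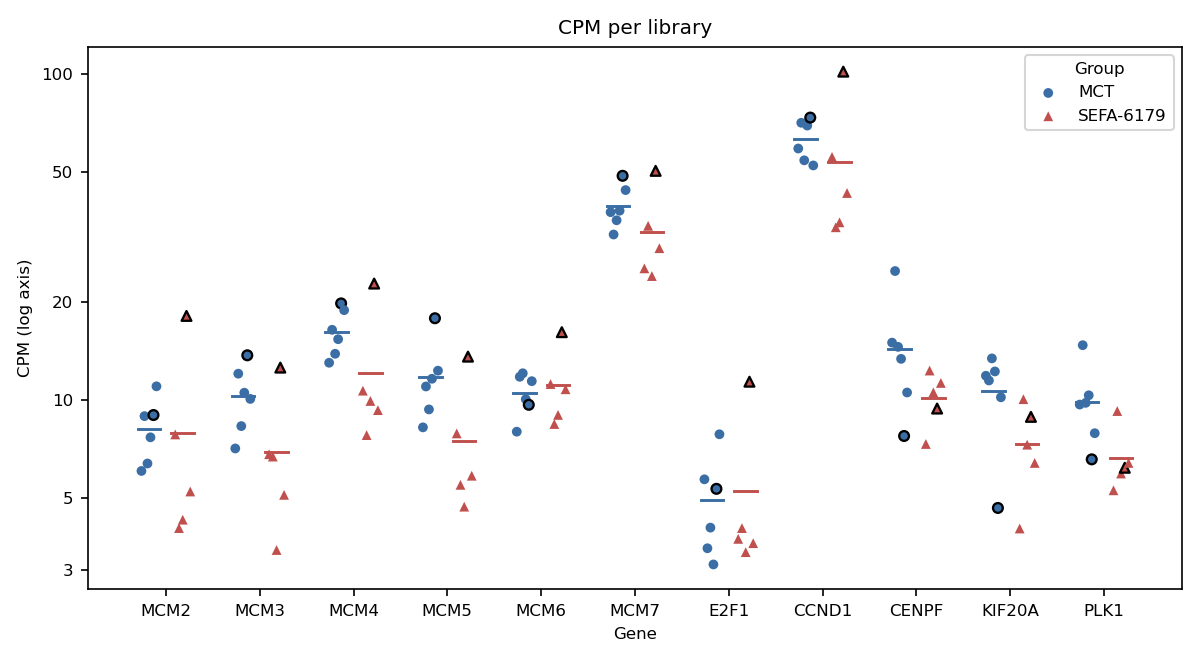
CPM on a log axis in each library for the 6 MCM genes, E2F1, CCND1, CENPF, KIF20A and PLK1, with triangles for SEFA-6179, circles for MCT, horizontal lines for group means, and black outlines for SEFA-6179 replicate 4 and MCT replicate 5. In E2F1 SEFA-6179 replicate 4 lies at 11.4 CPM above all other libraries, and in KIF20A MCT replicate 5 lies at 4.66 CPM below the other MCT libraries.

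E2F1 (chromosome 17, 37178598 to 37189841), a transcription factor that switches on S phase genes, also had its highest level in SEFA-6179 replicate 4. It was at 3.75, 4.04, 3.41, 11.4 and 3.63 CPM in the SEFA-6179 replicates, and at 3.13, 4.70 and 7.84 CPM at the lowest, median and highest MCT library. Only replicate 4 lay outside the MCT range. On average the log2 fold change was 0.09 ± 0.35 (SE), with an edgeR adjusted p of 0.953, and -0.40 without that library. CCNE2, a cyclin of the G1 to S transition, overlapped fully, at 4.31 to 6.41 CPM against 2.34 to 6.50 CPM, with a log2 fold change of 0.23 ± 0.27 (SE), or 0.10 without MCT replicate 2 and 0.14 without MCT replicate 5.

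PCNA (chromosome 17, 14125814 to 14185276), the sliding clamp, was at 18.4, 19.4, 22.9, 32.3 and 20.7 CPM with SEFA-6179 and at 18.01, 22.9 and 29.9 CPM at the lowest, median and highest MCT library. The groups overlapped, with replicate 4 again the highest, and the log2 fold change was -0.01 ± 0.18 (SE), with an edgeR adjusted p of 0.990. Its 95% interval ran from -0.39 to 0.37. The annotated span of PCNA overlaps that of CDS2, a more abundant gene on the other strand. Overlaps were judged by whole spans, introns included, and shared exons were not examined. Without a stated strand setting, whether reads of CDS2 entered the PCNA count is not known.

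Of the nucleotide supply genes, TYMS (chromosome 6, 105640031 to 105660601), which makes thymidylate, was at 2.61, 8.55, 4.03, 5.83 and 3.82 CPM with SEFA-6179, and at 4.86, 7.76 and 9.43 CPM at the lowest, median and highest MCT library. Unlike in the MCM genes, SEFA-6179 replicate 2 and not replicate 4 was the highest of its group, and 3 of the 5 lay below every MCT library. For this gene the log2 fold change was -0.57 ± 0.28 (SE), with an edgeR adjusted p of 0.490, and -0.86 without SEFA-6179 replicate 2. TYMS overlaps ENOSF1 on the other strand, so its reads are uncertain in the same way as those of PCNA. RRM1, the large subunit of ribonucleotide reductase, was at 51.7 to 76.0 CPM with SEFA-6179 and at 55.9 to 65.8 CPM with MCT. TK1, the salvage kinase of thymidine, was at 7.78 to 16.4 CPM and 10.5 to 15.8 CPM. The log2 fold change was 0.07 ± 0.13 (SE) for RRM1 and -0.01 ± 0.20 (SE) for TK1. TK1 overlaps AFMID, a far more abundant gene on the other strand, and SOCS3 on its own strand.

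The G1 cyclin CCND1 (chromosome 2, 3621246 to 3633296), which binds CDK4 and CDK6 in response to growth signals, had the highest mean FPKM of the 33 genes, at 14.9 ± 2.20 FPKM (SD, n = 6) with MCT and 12.7 ± 6.61 FPKM (SD, n = 5) with SEFA-6179. It was at 55.6, 33.8, 35.0, 102 and 43.1 CPM in the SEFA-6179 replicates, and at 52.4, 64.2 and 73.5 CPM at the lowest, median and highest MCT library. As in MCM2, 3 SEFA-6179 libraries lay below every MCT library and replicate 4 above every one. Its log2 fold change was -0.23 ± 0.25 (SE), with an edgeR adjusted p of 0.792, and -0.59 without SEFA-6179 replicate 4, with an edgeR adjusted p of 0.280. Without SEFA-6179 replicate 2 or 3 it was -0.11.

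The spread within the groups differed by phase. The coefficient of variation was larger with SEFA-6179 than with MCT in 11 of 12 S phase genes, with medians of 39.7% and 20.3%. Without SEFA-6179 replicate 4 it was larger in 6 of 12, with a median of 20.3% with SEFA-6179. Of the 20 mitotic genes it was larger with SEFA-6179 in 12, with medians of 33.5% and 32.2%. Whether the spread differed between the groups was not tested.

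Among the mitotic kinases, cyclins and FOXM1, 4 of 6 log2 fold changes were below 0, with a median of -0.39. PLK1 (ENSSSCG00000026748, chromosome 3, 22537816 to 22555023), the Polo kinase of mitotic entry and spindle assembly, was at 5.28, 9.24, 5.94, 6.19 and 6.41 CPM with SEFA-6179 and at 6.57, 9.74 and 14.7 CPM at the lowest, median and highest MCT library. The groups overlapped through SEFA-6179 replicate 2 alone. PLK1 was 1.49-fold lower on average, with a log2 fold change of -0.57 ± 0.22 (SE), an unadjusted p of 0.0206 and an edgeR adjusted p of 0.345, which ranged from 0.224 to 0.550 over the other settings. With 1 library left out the estimate ran from -0.72, without SEFA-6179 replicate 2, to -0.42, without MCT replicate 2. The latter had an unadjusted edgeR p of 0.057.

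CDK1 (chromosome 14, 64233988 to 64395453), the kinase that drives mitotic entry, was at 2.84, 8.03, 4.65, 6.55 and 5.42 CPM with SEFA-6179 and at 2.93, 5.21 and 8.31 CPM at the lowest, median and highest MCT library. The groups overlapped over nearly their whole range. Between the groups the log2 fold change was 0.01 ± 0.29 (SE), with an edgeR adjusted p of 0.994 and a 95% interval from -0.62 to 0.64. CDK1 overlaps RHOBTB1, a more abundant gene on the other strand. CCNB1 (chromosome 16, 47338110 to 47348381), its mitotic cyclin, was at 3.58, 11.6, 6.15, 6.19 and 8.69 CPM with SEFA-6179 and at 4.10, 9.94 and 11.7 CPM at the lowest, median and highest MCT library. Its log2 fold change was -0.33 ± 0.30 (SE), with an edgeR adjusted p of 0.745, and the groups overlapped. Leaving out SEFA-6179 replicate 1 gave -0.16, and leaving out SEFA-6179 replicate 2 gave -0.56. As in CDK1, replicate 1 was the lowest and replicate 2 the highest of the SEFA-6179 group.

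FOXM1 (chromosome 5, 67245694 to 67263211), the transcription factor of the G2 and mitotic genes, was low in every library. It was at 0.681, 1.04, 1.09, 1.25 and 1.23 CPM with SEFA-6179 and at 0.899, 1.43 and 3.55 CPM at the lowest, median and highest MCT library. All 5 SEFA-6179 libraries were below the MCT median, and the groups overlapped. On average the log2 fold change was -0.71 ± 0.39 (SE), with an edgeR adjusted p of 0.535. It was -0.36 without MCT replicate 2 and -0.84 without MCT replicate 5. FOXM1 overlaps RHNO1, a more abundant gene on the other strand. CCNB2, a further B-type cyclin, also had all 5 SEFA-6179 libraries below the MCT median, at 3.18 to 4.11 CPM against 2.36 to 6.54 CPM, with a log2 fold change of -0.46 ± 0.28 (SE), or -0.60 without MCT replicate 5. The Aurora kinases differed in sign, since AURKB had an estimate on the log2 scale of 0.08 ± 0.23 (SE) and AURKA, known by description, of -0.49 ± 0.28 (SE), or -0.24 without MCT replicate 2. Neither passed the edgeR test, with adjusted p of 0.931 and 0.548. AURKA overlaps CSTF1, a gene on the other strand with a mean count of 306.

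In all 8 genes of the chromosomes, kinetochore and spindle the log2 fold change was below 0, the median was -0.36, and none passed the test. TOP2A (chromosome 12, 22001336 to 22028454), the topoisomerase that untangles sister chromatids, was at 14.1, 17.7, 12.4, 15.8 and 13.9 CPM with SEFA-6179, and at 9.72, 17.1 and 25.5 CPM at the lowest, median and highest MCT library. The SEFA-6179 libraries lay inside the MCT range. For this gene the log2 fold change was -0.21 ± 0.23 (SE), with an edgeR adjusted p of 0.792. Leaving out MCT replicates 2, 3 and 5 in turn gave -0.056, -0.13 and -0.33.

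MKI67 (chromosome 14, 137266634 to 137295666), which encodes the Ki-67 protein used as a stain for cycling cells, was at 19.4, 28.7, 21.8, 20.7 and 15.0 CPM with SEFA-6179 and at 14.8, 24.6 and 49.0 CPM at the lowest, median and highest MCT library. The SEFA-6179 libraries again lay inside the MCT range. The log2 fold change was -0.37 ± 0.26 (SE), with an edgeR adjusted p of 0.662. MCT replicate 2 was the highest of the 6 MCT libraries, and without it the estimate was -0.11.

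CENPF (chromosome 9, 128948497 to 129012218), a large protein of the outer kinetochore, was at 7.32, 12.3, 10.5, 9.41 and 11.3 CPM with SEFA-6179 and at 7.75, 14.0 and 24.8 CPM at the lowest, median and highest MCT library. All 5 SEFA-6179 libraries were below the MCT median and 1 was below every MCT library. Its log2 fold change was -0.50 ± 0.25 (SE), with an edgeR adjusted p of 0.504. It was -0.27 without MCT replicate 2 and -0.62 without MCT replicate 5. TPX2 (chromosome 17, 35431370 to 35484760), which activates AURKA on the spindle, was at 6.87, 14.4, 9.82, 12.7 and 12.4 CPM with SEFA-6179 and at 11.01, 13.5 and 20.3 CPM at the lowest, median and highest MCT library. The groups overlapped, and replicates 1 and 3 were below every MCT library. Its log2 fold change was -0.37 ± 0.21 (SE), with an edgeR adjusted p of 0.548, and it was -0.24 without SEFA-6179 replicate 1.

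The remaining genes of this role had wider or smaller estimates. CENPE, the kinetochore motor, had a log2 fold change of -0.64 ± 0.41 (SE), with MCT libraries from 2.92 to 19.5 CPM, and stood at -0.22 without MCT replicate 2 and -0.82 without MCT replicate 5. KIF11, the motor that pushes spindle poles apart, had -0.42 ± 0.28 (SE), or -0.26 without MCT replicate 2. The checkpoint kinases BUB1 and BUB1B had -0.35 ± 0.30 (SE) and -0.16 ± 0.30 (SE), which ran from -0.59 to -0.21 and from -0.30 to -0.011 with 1 library left out, and BIRC5, the survivin subunit of the chromosomal passenger complex, had -0.07 ± 0.25 (SE). NUSAP1, a spindle microtubule protein known by description, was at 20.6 to 35.9 CPM with SEFA-6179 and 22.7 to 31.3 CPM with MCT, with a log2 fold change of -0.02 ± 0.15 (SE). The edgeR adjusted p of these genes ran from 0.614 for CENPE to 0.984 for NUSAP1.

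Of the genes of mitotic exit and cytokinesis, 5 of 6 had a negative log2 fold change, and the median was -0.36. KIF20A (chromosome 2, 140202015 to 140211157), a kinesin of the central spindle, was at 4.03, 10.1, 7.29, 8.87 and 6.41 CPM with SEFA-6179 and at 4.66, 11.7 and 13.4 CPM at the lowest, median and highest MCT library. The lowest MCT value was that of replicate 5, and the other 5 MCT libraries, at 10.2 CPM or more, lay above every SEFA-6179 library. Between the groups the log2 fold change was -0.54 ± 0.27 (SE), with an edgeR adjusted p of 0.503. Without MCT replicate 5 and SEFA-6179 replicate 4 it was -0.76, with an edgeR adjusted p of 0.290. With 1 library left out it ran from -0.69, without MCT replicate 5, to -0.39, without SEFA-6179 replicate 1. KIF20A overlaps BRD8, a more abundant gene on the other strand.

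PRC1 (chromosome 7, 55840723 to 56045582), which bundles the microtubules of the central spindle, was the 1 gene of this role with a positive estimate, and its measurement is weak. It was at 0.454, 1.44, 0.775, 0.595 and 1.17 CPM with SEFA-6179 and at 0, 0.288 and 0.761 CPM at the lowest, median and highest MCT library. MCT replicates 1 and 5 had no count, so its fitted log2 fold change of 1.45 ± 0.74 (SE), with an edgeR adjusted p of 0.505, depends on the prior count. Its annotated span overlaps VPS33B on the same strand. The groups overlapped. With PRC1 left out, the number of mitotic genes below 0 was still 17 and their median was -0.37.

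The other 4 of this role were below 0 and did not pass the test. CDC20, the activator of the anaphase-promoting complex, stood at a log2 fold change of -0.42 ± 0.29 (SE), and UBE2C, a ubiquitin-conjugating enzyme of that complex, of -0.15 ± 0.29 (SE). KIF23, a motor of the central spindle, had -0.44 ± 0.33 (SE), and ECT2, which activates RHOA at the cleavage furrow, had -0.30 ± 0.20 (SE). Without MCT replicate 2 the estimate was -0.24 for CDC20, -0.0096 for UBE2C and -0.22 for KIF23. Their edgeR adjusted p ran from 0.621 for ECT2 to 0.889 for UBE2C.

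The libraries did not order alike in S phase and in mitosis. The S phase score of a library is the mean over the 12 S phase genes of log2 CPM with a prior count of 2, minus the MCT mean, and the mitotic score is the same over the 20 mitotic genes. The S phase score was -0.43, -0.25, -0.58, 0.46 and -0.37 in SEFA-6179 replicates 1 to 5, and -0.19, -0.04, -0.16, -0.03, 0.17 and 0.25 in MCT replicates 1 to 6. Thus 4 of the 5 SEFA-6179 libraries were below every MCT library on this score and 1 was above every one. By summed deposited FPKM of the 12 genes, 3 were below every MCT library and 1 above. SEFA-6179 replicate 2 was then at 51.7 FPKM, where the lowest MCT library was at 48.2 FPKM. MCM2 to MCM7 are among the 12 genes. Outside them the log2 fold change was -0.57 for TYMS and -0.01 to 0.23 for the rest. On the mitotic score the SEFA-6179 libraries stood at -0.78, 0.17, -0.39, -0.06 and -0.07, and the MCT libraries at -0.38, 0.56, 0.28, 0.03, -0.60 and 0.12. There the groups overlapped over most of their range, and 1 SEFA-6179 library was below every MCT library.

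**Figure D3:**
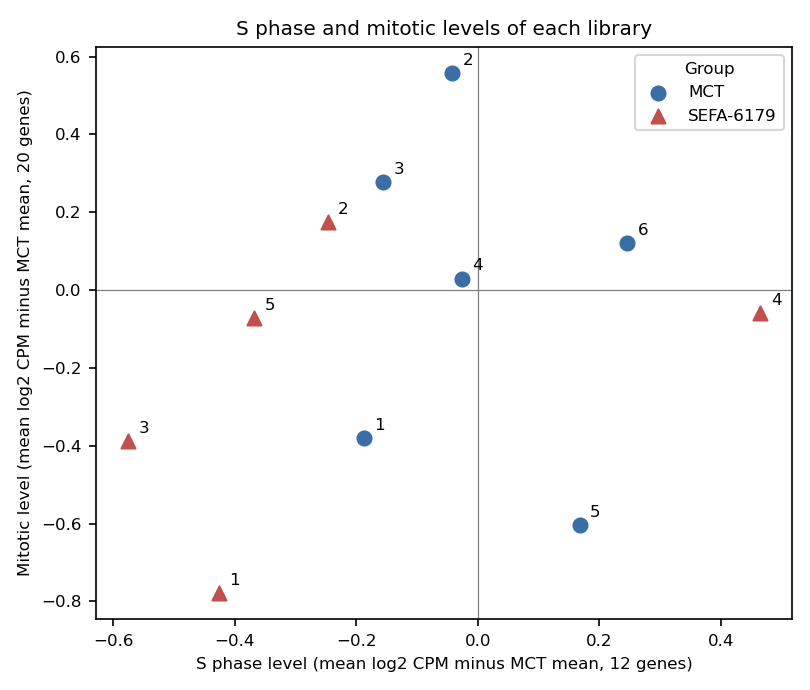
Mitotic score against S phase score, each a mean log2 CPM minus its MCT mean, for 5 SEFA-6179 libraries (triangles) and 6 MCT libraries (circles), numbered by replicate. On the S phase axis 4 triangles lie left of every circle and replicate 4 lies to the right of all at 0.46, whereas on the mitotic axis the groups are mixed.

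The group means of the S phase score differed by -0.23, with an SD of 0.41 (n = 5) with SEFA-6179 and 0.17 (n = 6) with MCT. For the mitotic score the difference was -0.22, with SDs of 0.37 and 0.43. Both differences were smaller than the larger SD. Without SEFA-6179 replicate 4 and MCT replicate 5 they were -0.37 and -0.39.

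SEFA-6179 replicate 4 and MCT replicate 5 had the lowest difference of mitotic score minus S phase score, at -0.52 and -0.77. In SEFA-6179 replicate 1 the difference was -0.35, and in the other 8 libraries it lay between -0.19 and 0.60, with the highest value in MCT replicate 2. By gene, SEFA-6179 replicate 4 was the highest of all 11 libraries in 6 of 12 S phase genes, whereas MCT replicate 2 was the highest in 12 of 20 mitotic genes. The lowest library in 13 of the 20 mitotic genes was SEFA-6179 replicate 1. MCT replicate 5 was the highest MCT library in 6 of 12 S phase genes and the lowest MCT library in 12 of 20 mitotic genes.

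**Figure D4:**
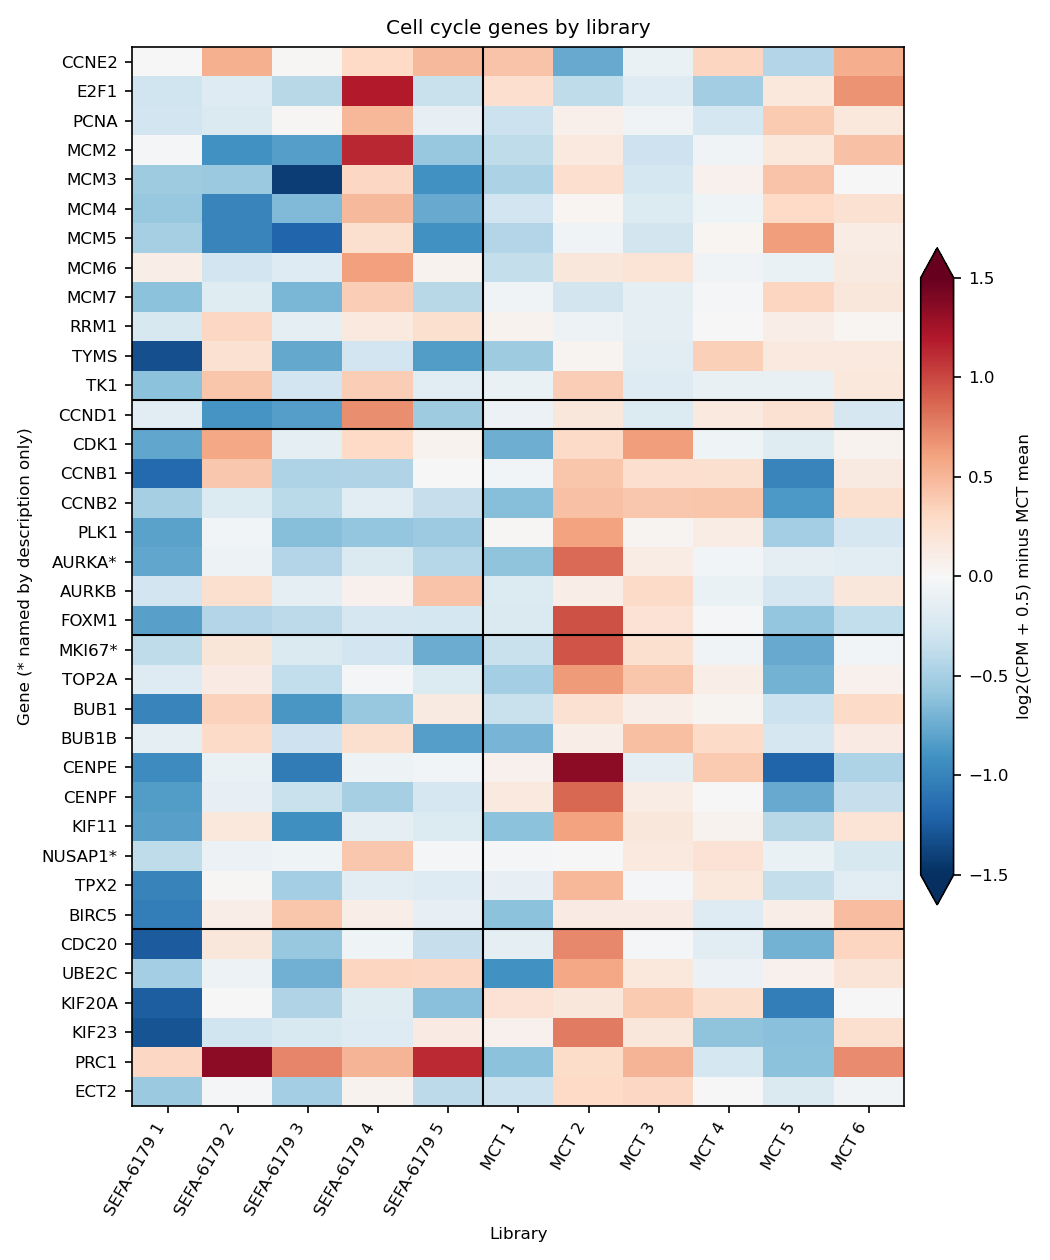
Log2(CPM + 0.5) minus the MCT mean for 36 cell cycle genes (rows, grouped by role) in 11 libraries (columns, grouped by treatment), with an asterisk on the genes known by description. SEFA-6179 replicate 4 is high in most MCM genes, MCT replicate 2 in 12 of 20 mitotic genes found by name, and SEFA-6179 replicate 1 is lowest in 13 of those 20.

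Levels between genes can be compared only per length, for which the deposited FPKM was used. The mean FPKM over 11 libraries ran from 0.0676 for PRC1 to 13.9 for CCND1, with a median of 2.10 over the 33 genes. With MCT, RRM1 stood at 12.6 ± 0.832 FPKM (SD, n = 6), MCM7 at 13.6 ± 2.12 and MCM4 at 4.19 ± 0.704. The ring subunits, which are present in equal numbers in the complex, thus differed in mRNA, since MCM6 was at 1.24 ± 0.177 FPKM and MCM2 at 1.81 ± 0.407. The spans of MCM7 and BIRC5 overlap other expressed genes on the opposite strand, and whether reads of those neighbours entered their counts is not known. The top of the mitotic genes was BIRC5, at 8.43 ± 2.04 FPKM, followed by UBE2C at 7.63 ± 2.45 FPKM, which do not differ beyond their spread. FOXM1 was at 0.480 ± 0.267 FPKM and CDK1 at 0.934 ± 0.308 FPKM. Of the 36 genes shown, 15 overlap another gene with a mean count of at least 10, in 13 cases on the opposite strand. Those on the opposite strand include CCNE2 with INTS8, AURKA with CSTF1, NUSAP1 with NDUFAF1 and OIP5, and ECT2 with NCEH1.

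The other genes of the pathway were taken from lists of the same stages. Of 41 further replication genes tested, 25 lay below 0, with a median log2 fold change of -0.05, and of 62 further mitosis genes 50 did, with a median of -0.28, beside 50.2% and -0.0015 over all genes. Neither list had a gene past the edgeR threshold, where the background was 0.219%. At an unadjusted p under 0.05, 3 of the 41 and 6 of the 62 were lower and none higher, against 5.52% and 5.24% of all genes. The 2 replication genes with the smallest p were CHAF1B and CDT1. CHAF1B, a subunit of the factor that loads histones behind the fork, had a log2 fold change of -0.88 ± 0.36 (SE). Its mean count was 31.8, and its groups overlapped, at 0.578 to 1.79 CPM with SEFA-6179 and 1.24 to 3.29 CPM with MCT. The estimate for CDT1, which loads the MCM ring, was -0.70 ± 0.31 (SE). CDT1 was at 2.95, 2.31, 2.95, 6.49 and 2.96 CPM with SEFA-6179 and at 3.82, 5.47 and 8.99 CPM at the lowest, median and highest MCT library. As in MCM3, MCM4 and MCM5, SEFA-6179 replicates 1, 2, 3 and 5 lay below every MCT library.

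In the mitosis list the smallest p belonged to NDC80, a core kinetochore protein, with an estimate of -0.88 ± 0.35 (SE) on the log2 scale and an edgeR adjusted p of 0.356, and to CEP55, a protein of the midbody. CEP55 was at 1.14, 0.924, 0.982, 1.07 and 0.801 CPM with SEFA-6179 and at 1.29, 1.60 and 1.86 CPM at the lowest, median and highest MCT library. Its groups did not overlap, as in 1.49% of all genes. On average the log2 fold change was -0.70 ± 0.28 (SE), with an edgeR adjusted p of 0.371.

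**Figure D5:**
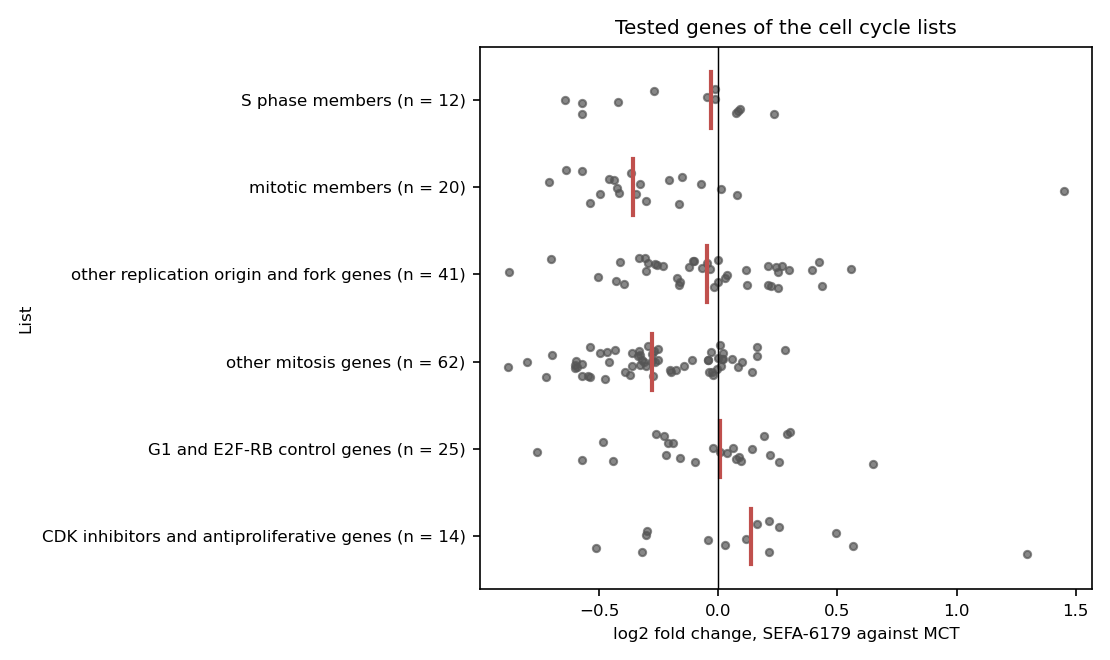
Log2 fold change of SEFA-6179 minus MCT for each tested gene of 6 lists: 12 S phase and 20 mitotic genes of the set, 41 other replication genes, 62 other mitosis genes, 25 G1 and E2F-RB genes, and 14 CDK inhibitors and antiproliferative genes, with a red line at each median. The 2 mitotic lists have medians of -0.36 and -0.28, and the inhibitors have a median of 0.14.

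Upstream of S phase, 12 of 25 G1 and E2F-RB control genes were below 0, with a median of 0.0088. None passed the edgeR threshold, against 0.219% of all genes, and 3 were lower and 0 higher at an unadjusted p under 0.05, against 5.52% and 5.24%. E2F3, an activating E2F factor, was at 5.85, 3.58, 5.43, 6.19 and 3.76 CPM with SEFA-6179 and at 6.41, 7.34 and 8.56 CPM at the lowest, median and highest MCT library. Its groups did not overlap, replicate 4 included, as in 1.49% of all genes. For this gene the log2 fold change was -0.57 ± 0.19 (SE), with an edgeR adjusted p of 0.285, which ranged from 0.159 to 0.518 over the other settings. CDK6, a partner kinase of the D-type cyclins, had a log2 fold change of -0.76 ± 0.31 (SE), with MCT libraries from 3.51 to 13.7 CPM.

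Among 14 CDK inhibitors and antiproliferative genes, 5 were below 0, with a median of 0.14. None was called by edgeR over all 11 libraries with the main filter on low counts, against 0.219% of all genes. At an unadjusted p under 0.05, 2 were higher and 0 lower, against 5.24% and 5.52% of all genes. BTG3 (chromosome 13, 182208958 to 182227971), of the BTG and TOB family of antiproliferative proteins, came nearest. It was at 76.7, 120, 199, 64.0 and 133 CPM with SEFA-6179 and at 33.8, 49.7 and 56.2 CPM at the lowest, median and highest MCT library. Every SEFA-6179 library lay above every MCT library, and 1.49% of all genes had groups that did not overlap. The level was 2.45-fold higher, with a log2 fold change of 1.29 ± 0.25 (SE), a 95% interval from 0.75 to 1.84 and an edgeR adjusted p of 0.0577. Over the other settings the adjusted p ran from 0.000458, by DESeq2's Wald test, to 0.170, by edgeR without MCT replicate 4. By edgeR it also passed without SEFA-6179 replicate 4, at 0.0444, and with no filter on low counts, at 0.0373, and in no other fit. CDKN1B, the inhibitor p27 of CDK2 complexes, was at 28.6 ± 5.14 CPM (SD, n = 5) under SEFA-6179 against 20.3 ± 5.96 CPM (SD, n = 6) under MCT, an estimate on the log2 scale of 0.49 ± 0.20 (SE) and an edgeR adjusted p of 0.362.

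No cell cycle gene passed the test between the groups. For a lower estimate, bulk tissue cannot tell fewer dividing cells from less of these RNAs per dividing cell. Marker sums of other cell types of the liver were set beside the results. The T and NK cell sum was 19.1 to 54.9 CPM with SEFA-6179 and 18.5 to 50.6 CPM with MCT, and 11 of its 13 genes were above 0 in log2 fold change. B and plasma cell markers summed to 6.43 to 15.4 CPM and 5.64 to 21.8 CPM, with 2 of 3 genes above 0. The macrophage and Kupffer cell sum was 171 to 2640 CPM and 384 to 1651 CPM, with 11 of 15 above 0, and the sums were lowest in each group in SEFA-6179 replicate 4 and MCT replicate 5.

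Of the other blood cells, granulocyte markers were at 5.48 to 15.2 CPM and 1.99 to 11.7 CPM, with 4 of 4 above 0. The erythroid sum, which is mostly HBB and TFR2, the latter also made by hepatocytes, was 857 to 1364 CPM and 722 to 953 CPM, with 4 of 12 above 0. Of its defining markers, KLF1 and GATA1 were too low to be tested, with a highest level of 2.81 and 1.52 CPM in MCT replicate 6. Endothelial markers summed to 739 to 1195 CPM and 587 to 1084 CPM, with 15 of 15 above 0, and stellate cell markers to 686 to 1038 CPM and 844 to 1237 CPM, with 3 of 14 above 0. Cholangiocyte markers summed to 214 to 289 CPM and 229 to 519 CPM, with 1 of 12 above 0. Their median log2 fold change was -0.66, further below 0 than the median of -0.30 of the cell cycle genes. At an unadjusted p under 0.05, 5 of the 12 were lower and 0 higher, against 5.52% and 5.24% of all genes. The lowest edgeR adjusted p of this list was 0.0539, for CD24. At the same unadjusted p, 4 of 15 endothelial markers were higher and 0 lower, and 4 of 14 stellate cell markers were lower and 1 higher. In each of the other lists no more than 2 were lower and no more than 2 higher. Hepatocyte markers had 12 of 16 above 0. No marker of any of these 9 lists passed the edgeR test, against 0.219% of all genes. The part of these cell types in the values of the cell cycle genes was not tested.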

How the data were processed

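Liver RNA-seq of 11 libraries, 5 SEFA-6179 and 6 MCT, was grouped by the labels. Per the file headers, the deposited table gives raw read counts and FPKM values per gene and library, and the authors' log2 fold change, p-value and adjusted p-value. Tools named in the submitters' processing notes, with no roles, are DESeq2 1.20.0, featureCounts 1.5.0-p3, HISAT2 2.0.5 and StringTie 1.3.3b. The genome build, annotation and strand setting were not given in the sources used here, and coordinates are those of the table.

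Counts of 22029 genes were filtered with filterByExpr (minimum count 10), which left 13671 genes, scaled with TMM (trimmed mean of M values), and tested two-sided with edgeR 4.0.16 (R 4.3.3, limma 3.58.1) by the robust quasi-likelihood test, with Benjamini-Hochberg adjustment over all genes and a threshold of 0.05. Levels are CPM after scaling, and scores use log2 CPM with a prior count of 2. FPKM was used for levels between genes, for the MCM and S phase sums of the libraries, and for the group means of CCND1. It was taken as deposited, without TMM scaling. The test was checked on simulated counts first.

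The members and lists were chosen with earlier results of these data known. Values of each SEFA-6179 library, with the lowest, median and highest of the 6 MCT libraries, are given for 12 genes named in the rule, 10 of which were found, and for the 2 members of each of 5 roles with the smallest edgeR p. In the other 4 lists the genes named are those past the threshold, or else the 2 with the smallest p. Other members and libraries are given by range. MCM3, MCM4, MCM6, MCM7, CCNB2, AURKA, AURKB and the remaining members were named because every member is accounted for.

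Alternatives were DESeq2 1.42.0 size factors and Wald test, a minimum mean count of 50 or no filter, no robust estimation, a prior count of 0.5, a replicate block, each library left out, both libraries that stood apart left out, and a covariate for EIF1AY, a gene of the Y chromosome. Summaries used Python 3.11.15 with pandas 2.3.3. Promoter and protein sequences were not analysed here.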

Additional observations from a re-analysis of the deposited data

Results flagged for a closer look

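In 78 sets of values, each 1 of 36 cell cycle genes, a phase score or the difference of the scores in 1 group, 6 held a library separated from the rest by a gap that took up most of the range of its group. By chance about 1 in 20, or 3.9 of 78, would do so. In SEFA-6179 replicate 4 this held for 3 S phase genes. E2F1, the S phase factor, was at 11.37 CPM where the other SEFA-6179 libraries were at 3.411 to 4.043 CPM. MCM2 was at 18.1 CPM, with the others at 4.043 to 7.834 CPM, and MCM4 at 22.74 CPM, with the others at 7.798 to 10.67 CPM. These 3 genes share their library and are not independent.

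The other 3 were mitotic. PLK1 was at 9.242 CPM in SEFA-6179 replicate 2, where the others of its group were at 5.28 to 6.406 CPM. AURKA was at 8.787 CPM in MCT replicate 2, with the other MCT libraries at 2.878 to 5.046 CPM. KIF20A was at 4.661 CPM in MCT replicate 5, the low end of its group, with the others at 10.19 to 13.41 CPM.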

How the results depend on the processing

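None of the 33 cell cycle genes was called by edgeR or DESeq2 under any alternative. Over all genes edgeR called 30, against 255 by DESeq2's Wald test, 1 without both libraries that stood apart, 6 with EIF1AY as a covariate, and 0 to 53 with 1 library left out (0 when SEFA-6179 replicate 5 or MCT replicate 4 was left out, with 1184 and 1258 genes at an unadjusted p under 0.05). The S phase median of -0.03 was -0.39 without both libraries and ran from -0.44, without SEFA-6179 replicate 4, to 0.018 with 1 library left out, and 5 to 10 of the 12 genes were below 0. For mitotic genes the same ranges were -0.48 to -0.24 (without MCT replicate 2) and 16 to 18 of 20. Estimates near 0 changed sign. CDK1 was at -0.10 without both libraries, at -0.044 with EIF1AY, and at -0.16 to 0.17 with 1 library left out. For E2F1 the values were -0.38 without both libraries and -0.40 to 0.27, for PCNA -0.17 to 0.077, and for MCM2 -0.60 to 0.115. The cause was not tested. The alternatives with the genes known by description and without PRC1 were chosen after seeing the data. Both libraries that stood apart were also picked from their values in these data. Low counts limit FOXM1, PRC1, CEP55, CHAF1B and NDC80.

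The labels do not state whether libraries of the same number in the 2 groups were paired. The correlation of deviations within a number ran from -0.12 to 0.17, and only number 3 matched itself best. With so few libraries, some of which stood apart, these correlations cannot exclude a pairing. With the replicate block over 1 to 5, edgeR called 8 genes in all and none of the 33, and PCNA was at 0.0089.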
